A study of Homo sapiens with 24 samples.

Results

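The response to dexamethasone (dex) was examined in Nalm6 cells that expressed an shRNA against HP1γ. Nalm6 cells are a human line of B-cell precursor acute lymphoblastic leukemia (B-ALL), and dex is a synthetic glucocorticoid (GC). The libraries were chosen by their labels alone: the 3 replicates of shHP1γ cells (shHP1g in the labels) treated with 100 nM dex and the 3 treated with vehicle ethanol, each for 8 h. These are 6 of the 24 libraries in the series. The question was which transcripts dex still raised or lowered when HP1γ was targeted, and by how much. The other 18 libraries came from cells with a non-specific shRNA (shNS) or an shRNA against G9a or GLP, with the same treatments and 3 replicates each. shNS cells served as the reference. All cells carried a lentiviral shRNA vector and were used as resistant populations after puromycin selection, not as clones, so a population can hold cells with different degrees of depletion. The labels place the replicates on separate days, and the replicate number entered the statistical model as a block.

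GCs bind the glucocorticoid receptor (GR, gene NR3C1), a transcription factor that is held by chaperones in the cytoplasm and moves to the nucleus once it has bound its ligand, where it activates some genes and represses others. In lymphoid cells the response ends in growth arrest and apoptosis, which is why GCs are used against B-ALL. HP1γ, encoded by CBX3, is a chromodomain protein that binds methylated lysines, above all lysine 9 of histone H3 and methylated sites of G9a and GLP themselves, and has been described both in silent chromatin and at transcribed genes.

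Library totals of the 6 shHP1γ libraries ran from 9658677 to 13323421 counts, inside the range of all 24 (9289533 to 14387770, median 11132064.5). After a filter of more than 1 CPM (counts scaled to a common library size) in at least 2 libraries, 10167 RefSeq transcripts of 9387 gene names were tested. CBX3, the targeted gene (chromosome 7, 26240782 to 26253227, GRCh37), had few counts. Its transcript NM_016587 stood at 3.39, 2.78 and 2.41 CPM in the ethanol libraries of replicates 1, 2 and 3 and at 1.59, 2.88 and 2.64 CPM in the dex libraries, against means of 4.02 ± 0.389 CPM (SD, n = 3) and 3.65 ± 0.450 CPM (SD, n = 3) in shNS. NM_007276 had means of 2.74 ± 0.224 CPM in ethanol and 2.77 ± 0.381 CPM in dex (SD, n = 3), against 3.37 ± 0.517 CPM and 3.09 ± 0.340 CPM in shNS. Neither CBX3 transcript differed from shNS past the limit in ethanol (log2 differences of -0.50 and -0.30, adjusted p = 0.277 and 0.644, edgeR) or in dex (-0.61 and -0.15, adjusted p = 0.142 and 0.842, edgeR). A difference in CBX3 mRNA was thus not called for either transcript at these low counts, which does not show that depletion failed. CBX3 has several isoforms, and the counting limit for such genes given below applies to it. The study reports efficient depletion of HP1γ protein and mRNA, by immunoblot and by RT-qPCR, which are not analysed here. The B-cell precursor markers VPREB3 (219.5 to 372 CPM), IGLL1 (56.3 to 74.4 CPM), MME (19.3 to 43.3 CPM) and CD79A (9.71 to 13.3 CPM) were present in every shHP1γ library. IGLL1 encodes a part of the surrogate light chain. CD79B, CD22, BLNK and CD24 had 0 counts in the 6 libraries. Of accessions in genes with 2 or more accessions, 73.7% had 0 counts in every library, against 28.2% in genes with 1 accession, so a zero for a gene with several isoforms is no sign of absence here. T-cell markers summed to at most 0.0867 CPM per library, and myeloid markers to 2.80 to 11.8 CPM.

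Both replicate 1 libraries of shHP1γ cells stood apart from replicates 2 and 3. Over 5606 transcripts with a mean of at least 5 CPM, the root mean square difference in log2(CPM + 1) between the ethanol libraries was 0.348 for replicates 1 and 2 and 0.373 for 1 and 3, against 0.244 for 2 and 3. Between the dex libraries it was 0.343 and 0.359, against 0.179. The deviation was shared by both treatments: 46 transcripts were at least 2-fold higher, and 8 at least 2-fold lower, in replicate 1 than in the mean of replicates 2 and 3 with ethanol and with dex alike. Among the other shRNAs no replicate had more than 5 such transcripts. With dex alone, shG9a replicate 2 stood further apart, at 0.395 and 0.425 from replicates 1 and 3, against 0.206 between those. That library also entered the choice of transcripts on shG9a and shGLP further on. KLF2, a quiescence factor of lymphocytes, was one of the 46, at 9.36, 2.78 and 2.32 CPM with ethanol and 80.6, 22.1 and 21.9 CPM with dex. The VEGF receptor gene FLT1, the surface protein gene TSPAN8, the G protein regulator RGS2 and the muscle and matrix genes TTN and TIMP2 were also among them, and KIF26A and IRS1 were among the 8 that were lower. These genes were named after their values were seen. Within the pairs KLF2 rose 8.61-, 7.95- and 9.43-fold, while for other genes, described further on, the pairs differed. Several results that rest on these libraries are given with and without them.

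In shHP1γ cells, dex changed 327 of the 10167 transcripts (3.22%; edgeR's quasi-likelihood test, adjusted p of at most 0.05), of 318 genes. Of these, 216 rose (2.12% of those tested) and 111 fell (1.09%). The rises were the larger changes, with a median log2 fold change of 0.82 against -0.30 for the falls. At least 2-fold changes were called for 90 transcripts (0.885%), 87 of them rises (0.856%) and 3 falls (0.0295%), and 27 transcripts changed at least 4-fold. All 327 moved in the called direction in 3 of 3 replicate pairs, and for 263 of them the dex and ethanol libraries did not overlap, against 10.7% of all tested transcripts. Without the shHP1γ replicate 1 libraries, 344 transcripts were called (193 rises and 151 falls), 249 of them among the 327. With a block for each pair of libraries of the same shRNA and number, a setting added after the replicate 1 libraries had been seen, 633 were called (311 rises and 322 falls), including all 327. Without any block, 159 were called (140 rises and 19 falls).

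**Figure D1:**
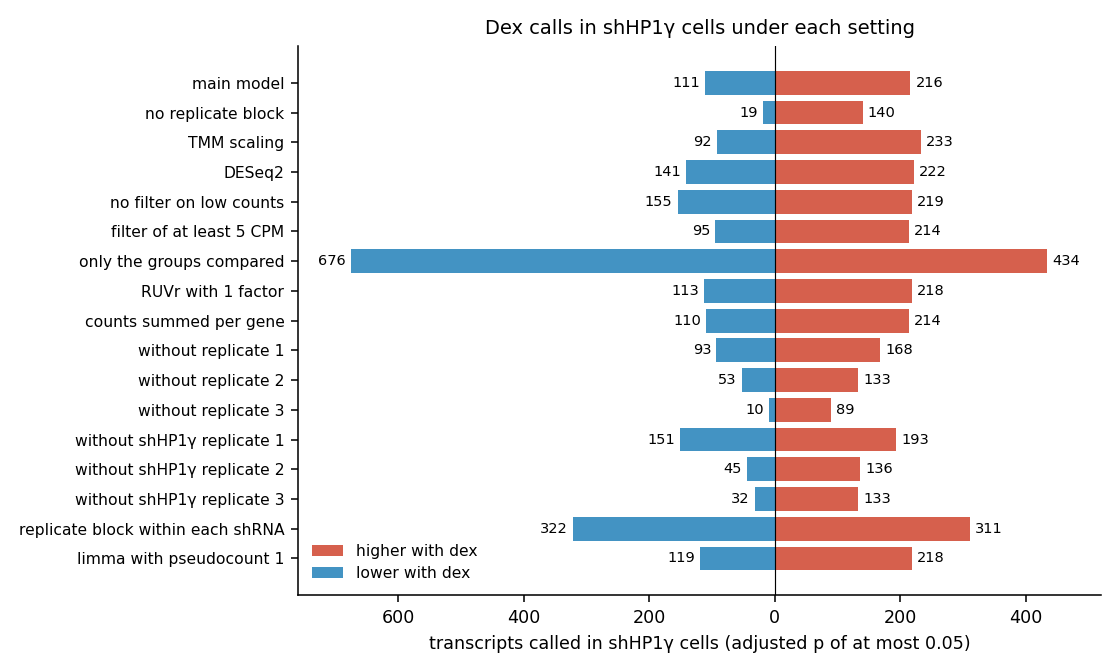
Number of transcripts called for dex against ethanol in shHP1γ cells (horizontal axis, adjusted p of at most 0.05) in the main model and under each other setting (vertical axis), with rises to the right of 0 and falls to the left. The main model called 216 rises and 111 falls, and the falls ranged from 10 without replicate 3 to 676 when the 6 libraries were fitted alone.

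The transcripts with the largest rises were switched on from near 0 or raised several fold. OR7A5, an olfactory receptor gene on chromosome 19 (14937053 to 14945997, GRCh37), had 0 counts in the ethanol libraries and 10.01, 4.17 and 4.24 CPM with dex, at least 62.8-fold higher if 3 counts are allowed over the ethanol group (fitted log2 fold change 9.05, which depends on the prior count, adjusted p = 7.87e-09, edgeR). GHRHR, the receptor of growth hormone releasing hormone, likewise went from 0 counts to 2.57, 1.82 and 1.79 CPM, at least 21.2-fold higher by the same limit. P2RY14, a receptor for UDP-sugars, had 3 counts in the ethanol group and 80 in the dex group, a ratio of 23.6 (95% counting interval 7.78 to 117). In all 3 genes the dex libraries lay above every ethanol library. The same held in shNS cells, in which OR7A5 reached 11.7 ± 1.61 CPM, GHRHR 2.86 ± 0.444 CPM and P2RY14 5.43 ± 0.939 CPM (SD, n = 3 each) with dex. The dex levels of OR7A5 and P2RY14 were called lower in shHP1γ than in shNS (log2 differences of -0.99 and -1.25, adjusted p = 0.00422 and 0.00396, edgeR). That of GHRHR was not (-0.47, adjusted p = 0.458, edgeR).

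TSC22D3, which encodes GILZ, a mediator of GC action in lymphocytes, rose from 8.33, 7.04 and 5.08 CPM to 112, 59.97 and 56.3 CPM in replicates 1, 2 and 3. Its log2 fold change was 3.46 (standard error 0.17, adjusted p = 1.81e-12, edgeR) in shHP1γ and 3.47 (standard error 0.16) in shNS, a difference of -0.02 with a standard error of 0.24. The TSC22D3 dex level differed from that in shNS by -0.27 on the log2 scale (adjusted p = 0.308, edgeR). Without the shHP1γ replicate 1 libraries this difference was -0.53 and called (adjusted p = 0.00343, edgeR). RASSF4, a Ras association domain gene, rose from 2.78, 2.88 and 4.01 CPM to 24.4, 35.9 and 32.2 CPM, a log2 fold change of 3.23 (standard error 0.22). In shNS cells the rise of RASSF4 was 4.37 (standard error 0.21), and the difference of -1.13 had an unadjusted p of 0.00245 and an adjusted p of 0.609. KLF2 rose by 3.06 on the log2 scale (standard error 0.36, adjusted p = 3.61e-06, edgeR). Because replicate 1 was high in both treatments, its dex library lay far above the other dex libraries, and the mean of 41.5 CPM had an SD of 33.9 (n = 3). The remaining rises named by size were the long non-coding RNA LINC00319 (log2 fold change 4.44), the exonuclease gene ISG20 (3.45), the orphan receptor gene GPR171 (3.04) and the Notch target HEYL (2.87). The size of 3 of these depended on replicate 1. HEYL rose 3.93-, 15.3- and 17.6-fold in the 3 pairs, and its log2 fold change was 4.01 without the shHP1γ replicate 1 libraries. LINC00319 rose 7.32-, 33.6- and 46.5-fold (5.20 without them) and GPR171 11.8-, 12.6- and 3.64-fold (2.37 without them), and all 3 stayed called (adjusted p = 3.63e-06, 2.98e-06 and 0.00839, edgeR). GPR171 and P2RY14 lie close together on chromosome 3 (150915619 to 150921003 and 150929905 to 150996330, GRCh37).

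GR binds as a dimer to the glucocorticoid response element, which was searched for as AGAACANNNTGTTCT (a sequence that reads the same on both strands) with at most 1 mismatch in the AGAACA and TGTTCT arms, in RefSeq promoters of 250 bases before to 50 after the start (GRCh38.p14). It was found in 0.176% of all 27305 promoters, in 5 of 6971 promoters of tested transcripts (0.0717%), in 1 of 61 among those that rose at least 2-fold in shHP1γ cells (1.64%) and in 1 of 96 among those that fell (1.04%). None of the 17 searched promoters among the genes named by the study or by the size of their change held it. Both promoters with a match are printed, in lower case with the element in capitals, because they are the transcripts with a change in these cells and the letters near the start. They were picked after the search. LINC00689, a long non-coding RNA at chr7:159008104-159008403 (plus strand), rose by 2.04 on the log2 scale, with the element 244 bases upstream. HSPA4, a chaperone of the HSP70 family at chr5:133051763-133052062 (plus strand), had a log2 fold change of -0.18, with the element 64 bases upstream.
LINC00689: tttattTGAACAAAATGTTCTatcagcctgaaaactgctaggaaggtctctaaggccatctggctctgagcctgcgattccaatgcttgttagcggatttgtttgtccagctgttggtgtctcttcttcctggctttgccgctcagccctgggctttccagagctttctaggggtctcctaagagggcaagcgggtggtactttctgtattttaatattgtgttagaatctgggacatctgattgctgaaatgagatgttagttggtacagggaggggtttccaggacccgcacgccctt
HSPA4: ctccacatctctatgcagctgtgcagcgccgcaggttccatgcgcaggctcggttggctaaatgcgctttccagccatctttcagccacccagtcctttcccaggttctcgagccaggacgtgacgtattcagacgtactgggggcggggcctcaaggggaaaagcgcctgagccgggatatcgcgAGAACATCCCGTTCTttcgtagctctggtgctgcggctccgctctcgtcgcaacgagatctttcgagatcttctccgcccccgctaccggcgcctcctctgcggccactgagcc

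Of the classical GR targets, 12 of 21 tested genes rose in shHP1γ cells and 1 fell, with a median log2 fold change of 0.66 against -0.01 over all tested transcripts. Of all tested transcripts, 2.12% rose and 1.09% fell in shHP1γ cells. In shNS cells 14 rose and 2 fell, with a median of 1.09 against -0.03, and 19 of the 21 values lay closer to 0 in shHP1γ than in shNS cells, as did 60.9% of all tested transcripts. FKBP5, an HSP90 co-chaperone that lowers the affinity of GR for its ligand, rose from 7.82, 7.04 and 13.4 CPM to 18.4, 22.1 and 27.6 CPM. Every dex library was above every ethanol library, and the log2 fold change was 1.29 (standard error 0.15, adjusted p = 5.49e-06, edgeR), against 1.75 in shNS. NFKBIA, the inhibitor of NF-κB, rose by 0.66 (from 143 ± 11.2 to 226 ± 14.6 CPM, SD, n = 3), against 1.09 in shNS. PER1, a repressor of the circadian clock, rose by 0.89 (174 ± 22.0 to 322 ± 23.97 CPM, SD, n = 3), against 1.25 in shNS. TXNIP, an inhibitor of thioredoxin and of glucose uptake, went from 23.96, 22.5 and 21.2 CPM to 40.6, 36.6 and 35.05 CPM, a rise of 0.73 (standard error 0.10, adjusted p = 3.55e-05, edgeR) against 1.40 in shNS. KLF9, DDIT4, GLUL, CXCR4, MERTK and MT1X also rose. The inhibitor of apoptosis BIRC3, at a mean of only 0.377 CPM in shHP1γ, rose by 2.70 in shNS. Its value of 1.10 in shHP1γ missed the limit (adjusted p = 0.535, edgeR). The BIRC3 difference from shNS was not called (unadjusted p = 0.141, edgeR), nor was that of any other of the 21 genes. Among 16 genes of GR and its chaperones, FKBP5 rose and the chaperones HSPA8 (-0.29), DNAJA1 (-0.39), DNAJB1 (-0.37) and HSPA4 (-0.18) fell, as did 4 genes of the list in shNS. NR3C1 itself, through its tested transcript, stood at 1.54 ± 0.215 CPM with ethanol and 2.21 ± 1.19 CPM with dex (SD, n = 3). It was not called (log2 fold change 0.48, adjusted p = 0.698, edgeR).

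The remaining genes that the study singled out by name had fitted rises below those in shNS. No difference in the size of the rise was called (adjusted p = 1.00 each, edgeR). ZNF831, a zinc finger gene, went from 32.8, 14.8 and 11.2 CPM to 66.2, 27.2 and 26.5 CPM. Replicate 1 was high in both treatments, so that its ethanol library lay above the dex libraries of replicates 2 and 3, while the gene rose 2.02-, 1.84- and 2.36-fold within the pairs (log2 fold change 1.03, adjusted p = 0.0187, edgeR). Its ethanol level was 1.28 higher on the log2 scale in shHP1γ than in shNS cells (adjusted p = 0.0145, edgeR), and 0.75 higher without the replicate 1 libraries (adjusted p = 0.00675, edgeR). LDLRAD4, an inhibitor of TGF-β signaling, rose by 1.06, and ARHGAP6, a GTPase-activating protein gene, by 0.79, against 1.59 and 1.19 in shNS. This ARHGAP6 transcript missed the limit without the shHP1γ replicate 1 libraries (0.72, adjusted p = 0.153, edgeR). Another tested ARHGAP6 transcript rose by 1.47 in shHP1γ (adjusted p = 0.00255, edgeR) and by 1.55 in shNS. In dex, LDLRAD4 and the first ARHGAP6 transcript differed from shNS by 0.01 and 0.14 on the log2 scale (adjusted p = 0.988 and 0.818, edgeR). In ethanol they differed by 0.54 each (adjusted p = 0.333 and 0.279, edgeR). LILRA2, an immunoglobulin-like receptor gene, stood at 0.206, 0.496 and 0.357 CPM with ethanol and 0.443, 1.06 and 1.32 CPM with dex, and was not called (1.38, adjusted p = 0.151, edgeR), while in shNS it rose by 2.88. With counts summed over the accessions of each gene it was called in shHP1γ cells (2.06, adjusted p = 0.000713, edgeR). The dex level of LILRA2 differed from that in shNS cells by -1.24 on the log2 scale (adjusted p = 0.036, edgeR). Without the shHP1γ replicate 1 libraries this difference was -0.88 and not called (adjusted p = 0.168, edgeR).

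**Figure D2:**
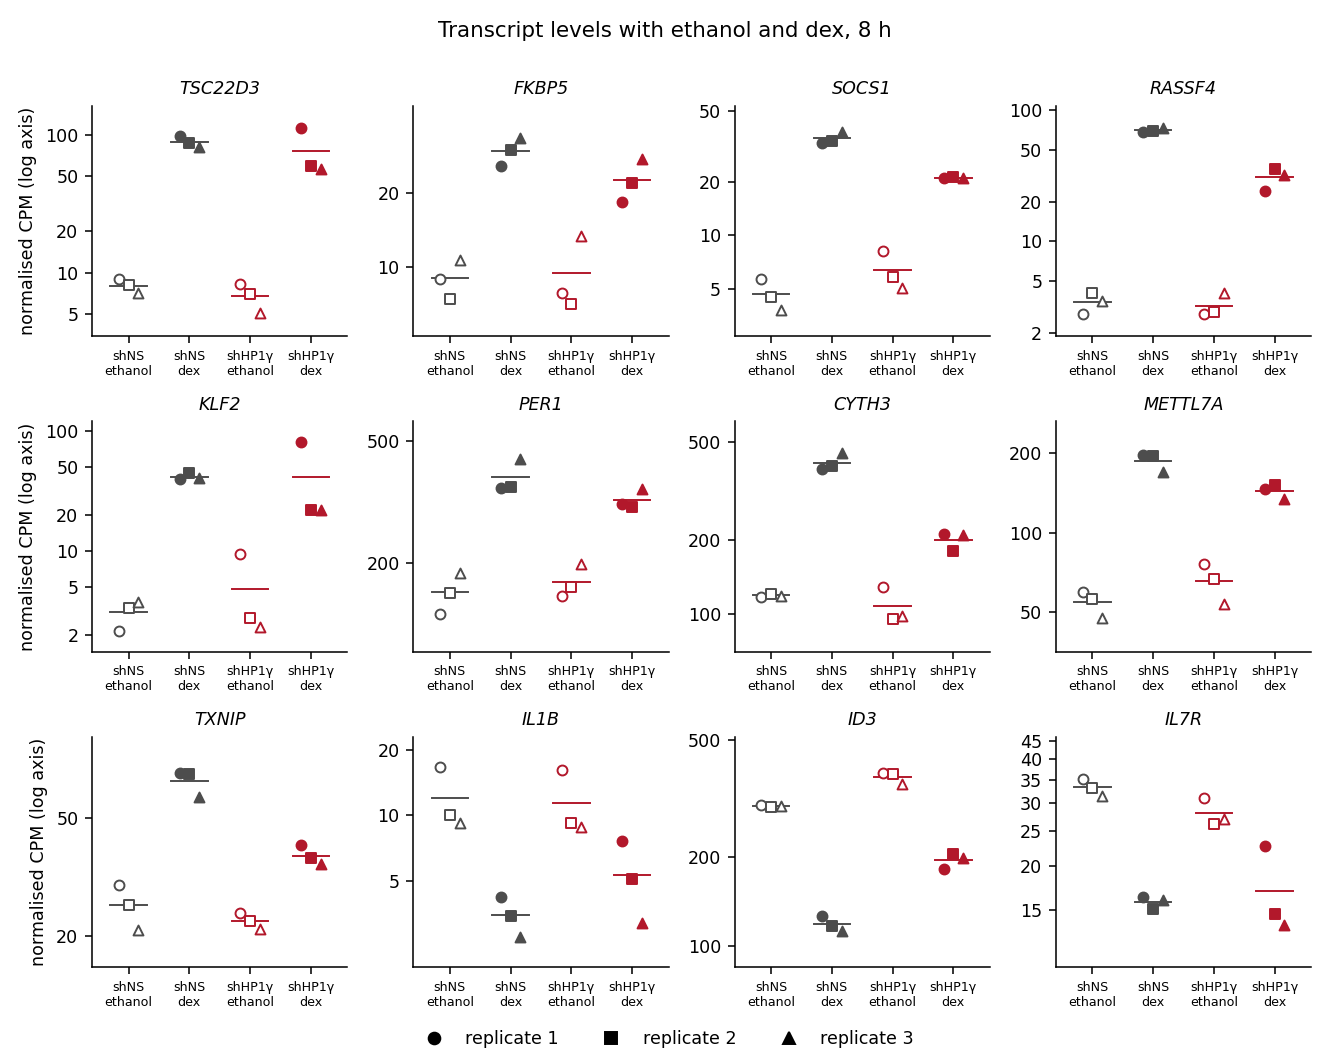
Normalised CPM (vertical axis, log scale) of 12 transcripts in each library of shNS (grey) and shHP1γ (red) cells, with open symbols for ethanol, filled symbols for dex, a symbol shape for each replicate and a line at the mean. The SOCS1, RASSF4, CYTH3 and METTL7A dex libraries of shHP1γ cells lie below those of shNS cells, and KLF2 replicate 1 lies above the other shHP1γ libraries in both treatments.

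A minority of the antiproliferative genes was called, while 2.12% of all tested transcripts rose and 1.09% fell. Of 16 antiproliferative genes and cell cycle inhibitors, 6 rose and 0 fell, with a median of 0.11, against 7 and 1 with a median of 0.27 in shNS. All 16 values lay closer to 0 in shHP1γ, against 60.9% of all tested transcripts. BTG1, an antiproliferative regulator of mRNA decay, went from 479, 425 and 378 CPM to 1034, 719.5 and 744 CPM (log2 fold change 0.96, adjusted p = 2.79e-08, edgeR), and its relative BTG2 rose by 0.92. KLF13, a Krüppel-like transcription factor, rose by 0.79, the mRNA-binding gene YBX3 by 0.88, SERTAD1, a CDK4-binding regulator that has also been tied to proliferation, by 0.76 and the MAX partner MXD4 by 0.46. Of 7 tested BCL2 family genes, the apoptosis inhibitor BCL2 fell, from 284, 314 and 339 CPM to 251, 244 and 241 CPM (-0.35, adjusted p = 0.00274, edgeR), against -0.70 in shNS. Each dex library was below each ethanol library. Of 12 clock genes only PER1 was called. None of 19 genes of DNA replication and none of 18 genes of mitosis was called by edgeR, DESeq2 or limma (3 and 1 at an unadjusted p under 0.05). Their medians were -0.17 and -0.06. With a block for each pair, 6 replication genes and 1 mitosis gene were called lower, and without the shHP1γ replicate 1 libraries 3 and 0.

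Cytokine and MAPK feedback genes moved in both directions, while 2.12% of all tested transcripts rose and 1.09% fell. SOCS1, an inhibitor of JAK kinases, went from 8.23, 5.85 and 5.08 CPM to 20.9, 21.4 and 21.1 CPM. The 3 dex libraries were nearly equal and lay well above the ethanol libraries (1.74, standard error 0.17, adjusted p = 2.75e-07, edgeR). SOCS2, which restrains growth hormone signaling, rose by 1.3, and IL7R, the receptor that B-cell precursors need for growth, fell from 31.1, 26.3 and 27.1 CPM to 22.8, 14.6 and 13.6 CPM (-0.74, adjusted p = 0.000359, edgeR). These were the 3 called genes of 14 in the JAK-STAT list. Of 10 NF-κB genes and inflammatory mediators, ZC3H12D, a ribonuclease gene of the Regnase family (1.02), NFKBIA and the activation marker CD69 (1.12) rose and IL1B, a pyrogenic cytokine, fell. CD69 was high in both replicate 1 libraries (19.5, 8.53 and 8.29 CPM to 41.2, 18.7 and 19.1 CPM), and rose 2.11-, 2.20- and 2.31-fold within the pairs. Among 19 immediate early and MAPK feedback genes, the phosphatase DUSP10 rose (1.40) and ID3, an inhibitor of E2A, IER2 and JUNB fell. Of 11 pre-B-cell receptor genes, UBASH3B, a suppressor of tyrosine kinase signaling (1.08), and the inhibitory co-receptor CD72 (0.72) rose. Of 13 B-lineage transcription factors, the coactivator POU2AF1 fell (-0.32, 289 ± 22.3 to 231 ± 36.4 CPM, SD, n = 3).

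Most genes in the lists of growth and metabolism were not called. Over all tested transcripts, 2.12% rose and 1.09% fell. Of 22 genes of MYC and ribosome biogenesis, 4 fell and 0 rose, with a median of -0.19. BYSL, needed to make the small ribosomal subunit, went from 182, 209 and 201 CPM to 131, 145 and 144 CPM (-0.49, adjusted p = 1.33e-06, edgeR). RRP9 (-0.33), WDR43 (-0.24) and nucleolin, NCL (-0.26), also fell, the last 2 not without the shHP1γ replicate 1 libraries (adjusted p = 0.0806 and 0.0703, edgeR). Of 21 genes of the amino acid response and the tRNA synthetases, edgeR and limma called none (9 at an unadjusted p under 0.05) and DESeq2 called 1 lower. The median was -0.20. In shNS 12 fell, with a median of -0.41, and 20 of 21 values lay closer to 0 in shHP1γ, against 60.9% of all tested transcripts. SESN2, a leucine sensor that is induced by ATF4, had a value of -0.27 (adjusted p = 0.0663, edgeR) against -0.64 in shNS. The count depended on the libraries: 6 fell with a block for each pair and 5 without the shHP1γ replicate 1 libraries. Of 20 genes of glucose uptake and glycolysis, hexokinase 2 (HK2, -0.48), PGK1 (-0.29) and the glucose transporter SLC2A1 (-0.36) fell and TXNIP rose, and SLC2A1 missed the limit without the shHP1γ replicate 1 libraries (adjusted p = 0.0634, edgeR). Of 17 genes of sterol and fatty acid synthesis, LSS, lanosterol synthase, rose (1.44) at a mean of 1.77 CPM with dex, a call also lost without those libraries (adjusted p = 0.0592, edgeR). Among 22 arrestin-domain and FOXO targets, KLF2, the autophagy-linked C10orf10 (1.34), DDIT4, an inhibitor of mTORC1 (1.14), and TXNIP rose.

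Of 19 genes of H3K9 methylation and the HP1 proteins, edgeR, DESeq2 and limma called none in shHP1γ cells (1 at an unadjusted p under 0.05, and 1 lower with a block for each pair), and edgeR called none in shNS. Of 19 interferon-stimulated genes, ISG20 and USP18, a protease that removes ISG15, rose (3.45 and 0.45), USP18 not without the shHP1γ replicate 1 libraries (adjusted p = 0.0853, edgeR). Of 19 leukocyte surface and adhesion genes, 4 rose and 2 fell. For these 3 lists too, the shares over all tested transcripts were 2.12% for rises and 1.09% for falls. MCAM, the adhesion molecule CD146, had replicates that differed little, from 535, 553 and 548 CPM to 939.8, 1050.3 and 999.5 CPM (0.87, standard error 0.05, adjusted p = 2.79e-11, edgeR). The tetraspanin CD9 fell from 142 ± 7.33 to 112 ± 0.940 CPM (SD, n = 3).

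**Figure D3:**
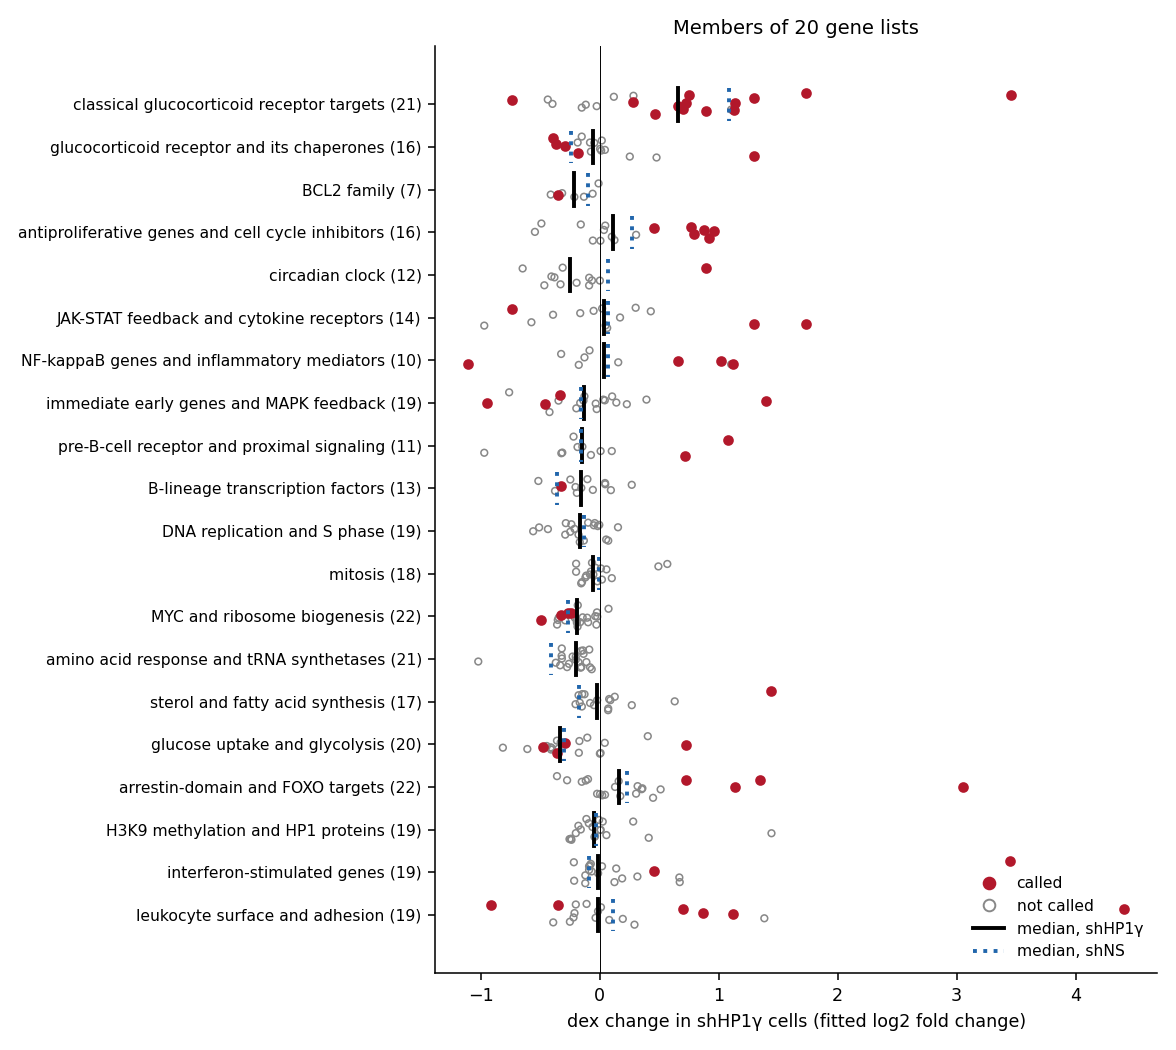
Log2 fold change of dex against ethanol in shHP1γ cells (horizontal axis) for each tested gene of the 20 lists (vertical axis, number tested in parentheses), with called genes in filled red. The black line marks the list's median in shHP1γ cells and the dotted blue line its median in shNS cells, which stand at 0.66 and 1.09 for the classical GR targets and at -0.20 and -0.41 for the amino acid response.

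Falls were more modest than rises, and 3 reached 2-fold. IL1B went from 16.1, 9.22 and 8.83 CPM to 7.62, 5.08 and 3.20 CPM (-1.11, standard error 0.20, adjusted p = 0.0011, edgeR). Each dex library was below each ethanol library. The transcript NM_001287427 of CCND3, cyclin D3, went from 6.17, 4.86 and 7.401 CPM to 3.01, 2.27 and 3.96 CPM (-1.003, standard error 0.21, adjusted p = 0.00579, edgeR), against -0.85 in shNS. With counts summed over the accessions of CCND3 the fall was not called (-0.66, adjusted p = 0.107, edgeR). Another accession of the gene, NM_001287434, rose at a mean of 0.561 CPM over all libraries (2.00 in shHP1γ and 1.66 in shNS, adjusted p = 0.0266 and 0.0298, edgeR). The third, TNFRSF13B, the receptor TACI, stood at 1.44, 1.39 and 0.892 CPM with ethanol and 0.354, 0.379 and 0.377 CPM with dex (-1.74, adjusted p = 0.0157, edgeR), under the limit of 1 CPM for naming a gene by size, and was named after its values were seen. ID3 was abundant and fell from 387, 385 and 356 CPM to 182, 206 and 198 CPM (-0.94, standard error 0.07, adjusted p = 1.78e-09, edgeR), with no overlap. KCNJ2, an inward-rectifier potassium channel, fell by 0.89, PHLDA1, a pleckstrin homology gene, by 0.74 and GP5, a platelet glycoprotein gene, by 0.91 on the log2 scale. These 3 were also chosen after their values were seen. In shNS the falls of ID3, KCNJ2, PHLDA1 and GP5 were -1.34, -1.72, -1.46 and -1.93, and the differences were not called (adjusted p = 0.22, 0.265, 0.438 and 1.00, edgeR). That of GP5, whose replicate 1 libraries were high in both treatments, was called with a block for each pair (1.00, adjusted p = 0.00408, edgeR), and that of KCNJ2 by DESeq2 (0.81, adjusted p = 0.0407). In ethanol, ID3, KCNJ2 and PHLDA1 stood 0.33, 0.65 and 0.80 higher on the log2 scale in shHP1γ than in shNS cells (adjusted p = 0.0062, 0.00777 and 0.000752, edgeR).

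The comparison with shNS asked whether the response to dex was the same size when HP1γ was targeted. In shNS cells dex changed 1012 transcripts (9.95%), of which 457 rose (4.49%) and 555 fell (5.46%), 194 of them at least 2-fold (1.91%). Of the 327 transcripts called in shHP1γ cells, 309 were also called in shNS (94.5%, or 30.5% of the shNS calls), in the same direction. Of the 90 that changed at least 2-fold, 82 also did so in shNS (91.1%, or 42.3% of the 194). The 5 at least 2-fold calls without a call in shNS, TNFRSF17, SLC45A4, TNFRSF13B and C9orf72 among them, were weakly expressed and had no called difference between the cells. A call in shNS alone does not show a difference, and the difference was tested as an interaction. It was called for 2 of 10167 transcripts (0.0197%), both with a smaller rise in shHP1γ, while 387 had an unadjusted p under 0.05. DESeq2 called 18 differences and edgeR with a block for each pair called 12.

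CYTH3 and METTL7A were the 2 transcripts with a called difference. CYTH3 (NM_004227, chromosome 7, 6201410 to 6312275, GRCh37) encodes cytohesin 3, an exchange factor for ARF GTPases. It stood at 129, 94.9 and 98.1 CPM with ethanol and 210.4, 181 and 209 CPM with dex in shHP1γ, against 119 ± 1.5 and 412 ± 32.3 CPM (SD, n = 3) in shNS. Every shHP1γ dex library was below every shNS dex library, while the ethanol values overlapped. The rise was 0.90 (standard error 0.09) in shHP1γ and 1.79 (standard error 0.09) in shNS, a difference of -0.89 (standard error 0.12, adjusted p = 0.00247, edgeR). The difference in level was -0.15 in ethanol (adjusted p = 0.479, edgeR) and -1.04 in dex (adjusted p = 5.15e-08, edgeR). Without the shHP1γ replicate 1 libraries the ethanol level was also called lower (-0.31, adjusted p = 0.0142, edgeR).

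METTL7A (NM_014033, chromosome 12, 51317255 to 51326293, GRCh37), a methyltransferase-like gene, stood at 76.3, 66.9 and 53.8 CPM with ethanol and 146, 151 and 134 CPM with dex in shHP1γ. In shNS it stood at 54.5 ± 6.19 and 186 ± 15.2 CPM (SD, n = 3), and again all shHP1γ dex libraries were the lower. The rise was 1.14 against 1.78, a difference of -0.64 (standard error 0.11, adjusted p = 0.0272, edgeR). The difference in level was 0.26 in ethanol (adjusted p = 0.0777, edgeR) and -0.37 in dex (adjusted p = 0.00286, edgeR). The METTL7A difference lost its call under 7 of the 16 other settings, such as without the shHP1γ replicate 1 libraries (-0.53, adjusted p = 0.107, edgeR). That of CYTH3 kept its direction under all 16 and its call under 14.

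**Figure D4:**
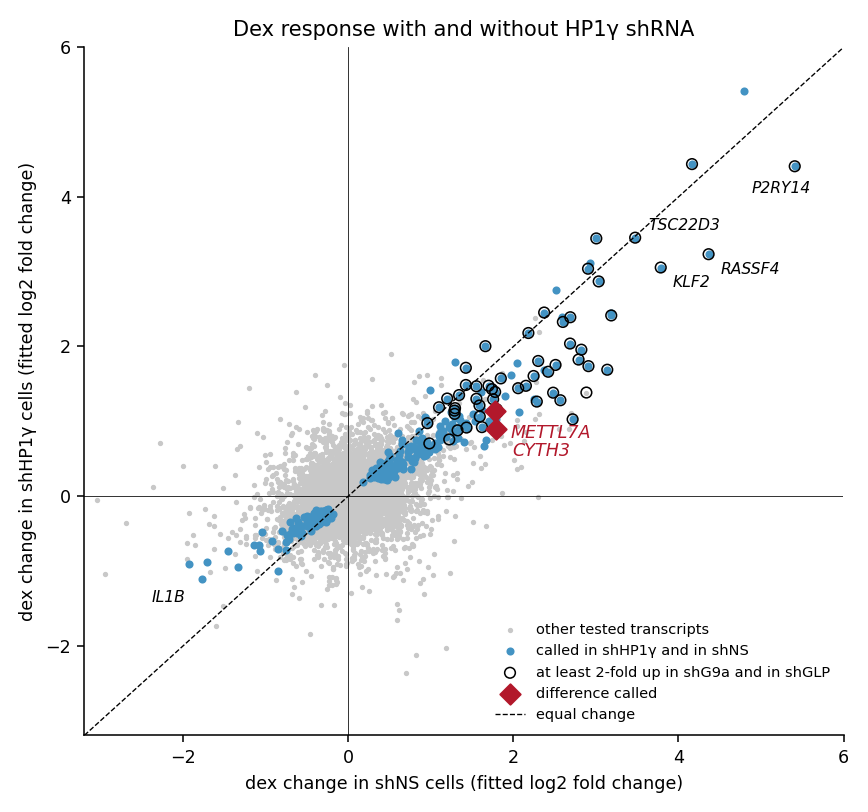
Fitted log2 fold change of dex against ethanol in shNS cells (horizontal axis) and shHP1γ cells (vertical axis) for 10159 of the 10167 tested transcripts, the other 8 lying outside the axes. Circles mark the 61 transcripts that rose at least 2-fold in both shG9a and shGLP cells and diamonds CYTH3 and METTL7A, both below the line of equal response.

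A further 8 transcripts shared an adjusted p of 0.0969 for the difference (edgeR), which misses the limit. They are named after their values were seen. Smaller rises in shHP1γ were fitted for SOCS1 (difference -1.17), CASTOR1, an arginine sensor of mTORC1 (-0.92), C1orf186 (-0.76), DISP3, a sterol-sensing domain gene (-0.71), BTNL9, a butyrophilin-like gene (-0.69), and TXNIP (-0.67). For CD180, a Toll-like receptor homologue on B cells, the fall was smaller (-0.25 against -0.78, difference 0.53). With a block for each pair, DISP3, C1orf186, BTNL9 and TXNIP passed the limit, and DESeq2 called these 4 and SOCS1, CASTOR1 and CD180 (adjusted p = 0.00484, 0.00484 and 0.0456). SLC20A2 went the other way, and its transcript NM_001257181 was near the limit of detection (0.621 ± 0.190 and 1.02 ± 0.296 CPM in shHP1γ, 0.879 ± 0.0848 and 0.169 ± 0.0753 CPM in shNS, SD, n = 3).

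The size of the response was then compared over transcripts chosen on the shG9a and shGLP libraries: the 61 that rose at least 2-fold in both (1.06% and 0.826% of those tested rose so far in shG9a and in shGLP). All 61 had a positive fold change in shHP1γ cells, and 58 were called there and 60 in shNS. Their median log2 fold change was 1.48 in shHP1γ (quartiles 1.21 and 2.39) and 2.24 in shNS (quartiles 1.59 and 2.90), beside -0.01 and -0.03 over all tested transcripts. In shG9a and shGLP, on which they were chosen, it was 1.64 and 1.598. The rise was smaller in shHP1γ than in shNS for 49 of the 61 (80.3%), with a median difference of -0.47. Of all tested transcripts, 45.3% had a difference below 0 and 60.9% a change nearer 0 in shHP1γ. On the log2(CPM + 1) scale the medians of the 3 pairs were 1.16, 1.16 and 1.303 in shHP1γ and 1.64, 1.64 and 1.63 in shNS, so the pairs did not overlap, and replicate 1 did not stand apart in this measure. With 3 pairs against 3 the smallest exact two-sided permutation p is 0.1, and the members share libraries and are not independent. Without the limit of 2-fold, 166 transcripts rose in both shG9a and shGLP (3.26% and 1.95% rose in each), with medians of 0.80 in shHP1γ and 1.12 in shNS, and 67 fell (2.98% and 1.34% in each), with medians of -0.28 and -0.41. The change was nearer 0 in shHP1γ for 148 (89.2%) and 64 (95.5%) of them, against 60.9% of all tested transcripts.

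**Figure D5:**
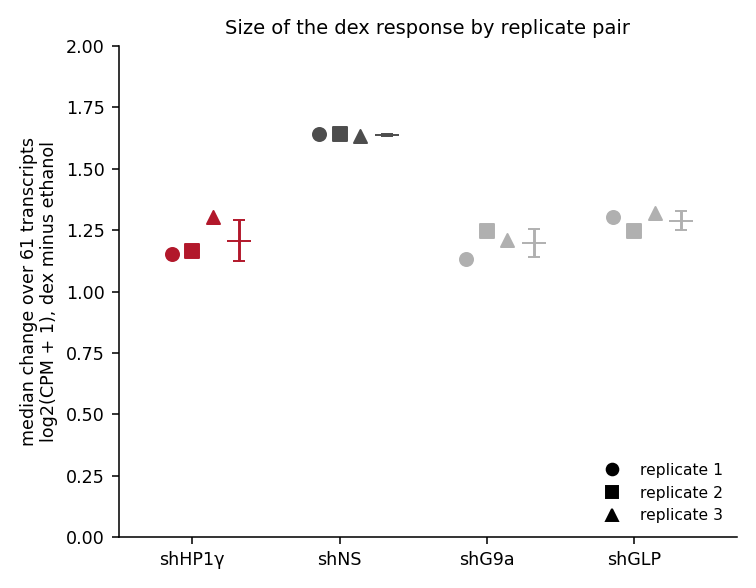
Median log2(CPM + 1) difference between dex and ethanol over the 61 transcripts (vertical axis) in each replicate pair (points) of each shRNA (horizontal axis), with the mean and SD of the 3 pairs. The shHP1γ pairs lie between 1.16 and 1.303, below the shNS pairs at 1.63 to 1.64 and among those of shG9a and shGLP, on which the transcripts were chosen.

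Against cells with an shRNA to G9a or GLP, the methyltransferases that HP1γ binds, no difference in the response passed the limit. Dex changed 634 transcripts in shG9a (6.24%) and 334 in shGLP (3.29%). The interaction with shG9a called 0 transcripts in edgeR, DESeq2 and limma (463 at an unadjusted p under 0.05), as did that with shGLP (196 at an unadjusted p under 0.05). A missed limit does not show that the responses were alike.

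Levels also differed without dex. In ethanol, 296 transcripts differed between shHP1γ and shNS (2.91%), 165 higher (1.62%) and 131 lower (1.29%) in shHP1γ, and in dex 416 differed (4.09%), 259 higher (2.55%) and 157 lower (1.54%). Among the named genes, RASSF4 (-1.21), C1orf186 (-0.93), TXNIP (-0.83), SOCS1 (-0.73) and NFKBIA (-0.46) stood lower in dex on the log2 scale (adjusted p = 3.91e-05, 2.42e-06, 2.81e-06, 0.00306 and 0.000214, edgeR). Their ethanol differences were -0.07, -0.17, -0.16, 0.44 and -0.03, none of them called. HEYL also stood lower in dex (-1.375, adjusted p = 0.00248, edgeR). Further named genes stood higher in dex, among them PHLDA1 (1.52), KCNJ2 (1.48), GP5 (1.34), ID3 (0.73) and IER2 (0.72). Their adjusted p were 3.46e-07, 1.25e-06, 0.00619, 3.46e-07 and 7.225e-07 (edgeR). Of these, PHLDA1, KCNJ2, ID3 and IER2 were also called higher in ethanol. Calls for the dex level also depended on replicate 1. Without the shHP1γ replicate 1 libraries, KLF2 (-0.91), GPR171 (-1.72) and CD69 (-0.62) gained a call for a lower level (adjusted p = 7.58e-05, 0.000459 and 0.00181, edgeR). TSC22D3 and PER1 also did. RRP9 gained a call for a higher level, and LILRA2 and UBASH3B lost theirs for a lower one.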

How the data were processed

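Poly(A) RNA of 24 Nalm6 libraries (8 groups of 3 replicates) was sequenced. The authors aligned reads to hg19 with HISAT2 (per the submitters' processing notes) and deposited unnormalised read counts for 64519 RefSeq accessions, 40144 of them at 0 in all libraries. How reads shared by isoforms or strands were counted is not given in the sources used here. A second deposited table holds the authors' fold changes and adjusted p-values and served for gene names only.

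The 10167 accessions with more than 1 CPM in at least 2 libraries were fitted in edgeR 4.0.16 (R 4.3.3; upper-quartile scaling, quasi-likelihood, Benjamini-Hochberg limit 0.05) over all 24 libraries, with 8 groups and the replicate number as a block. CPM refers to the scaled library sizes. Within shHP1γ, same-numbered ethanol and dex libraries deviated together (correlations 0.83, 0.635 and 0.686), and the lowest of any pair was 0.0976 (shG9a replicate 2). p-values measure the spread between these samples. Counting intervals and limits cover counting error only. DESeq2 1.42.0, limma 3.58.1 on log2(CPM + 1), another filter or scaling, other blocks and omitted libraries were alternatives. On simulated counts for 10167 transcripts, 49% of changes of 0.7 and 82.5% of 1.5 on the log2 scale were recovered for dex in shHP1γ, and 37.5% and 71.5% for the difference from shNS.

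Named genes were CBX3, 8 genes the study names, up to 10 called rises and falls of at least 2-fold at a mean of at least 1 CPM, called differences from shNS, and up to 4 called genes of each list with the smallest p. A gene stands in a list by its tested transcript with the highest mean CPM as counted here. For some genes with several isoforms that value was low, such as 4.30 CPM for GAPDH in shHP1γ cells. It need not stand for the whole gene, whether called or not. Members and lists were chosen with earlier results of these data known. Some items are not reported here. Lists share genes, such as TXNIP and FKBP5.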

Additional observations from a re-analysis of the deposited data

Results flagged for a closer look

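The response to dex differed between shHP1γ and shNS cells by the interaction test for CYTH3, by -0.89 on the log2 scale, and for METTL7A, by -0.64. In both, the rise was smaller in shHP1γ, in every replicate pair of which the gene still rose. The METTL7A difference lost its call under 7 of the 16 other settings and that of CYTH3 under 2.

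For transcript NM_001257181 of SLC20A2, a phosphate transporter gene, dex libraries stood above ethanol libraries in 3 of 3 shHP1γ pairs and below them in 3 of 3 shNS pairs. The difference of 2.99 on the log2 scale missed the limit (adjusted p = 0.0969, edgeR), at levels of about 1 CPM or less.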

How the results depend on the processing

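For dex in shHP1γ (327 calls, 66.06% of them rises), fitting the 6 libraries alone gave 1110 calls (39.1% rises). The fit with no replicate block gave 159 (88.05% rises), and a block for each shRNA and replicate number, chosen after seeing the data, gave 633 (49.13% rises). Dropping the block lost 20 named calls, the METTL7A difference among them, and the pair block lost none. Leaving out replicates gave 99 to 344 calls, with 89.9% rises without replicate 3, 56.1% without shHP1γ replicate 1 and 80.61% without shHP1γ replicate 3. Of changes of at least 2-fold (90), a filter of 5 CPM kept 45, limma called 52, and leaving out replicates gave 48 to 79.

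In shNS (1012 calls), no replicate block gave 518, the 6 libraries alone 2207, and leaving out replicates 306 to 1435. TMM scaling gave 56.48% rises against 45.16%. The 194 changes of at least 2-fold became 88 with the 5 CPM filter, 121 with limma and 127 to 210 without replicates. The difference from shNS (2 calls) gave 1 with no replicate block, 18 with DESeq2, 31 without a filter on low counts, 1 with RUVr, 12 with the block for each pair and 0 to 4 without replicates. Without that filter the differences from shG9a and shGLP gave 18 and 3 calls. The CYTH3 difference ranged from -0.98 to -0.78 (adjusted p = 2.35e-09 to 0.392, edgeR, DESeq2 or limma) and that of METTL7A from -0.72 to -0.53 (0.00017 to 1.00). The median difference over the 61 transcripts (-0.47) was -0.57 to -0.37 without replicates and -0.28 with no limit on fold. The cause of these shifts was not tested.

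Of 944 values of 60 named results under the alternatives, 817 kept direction and side of the limit, 120 lost the call, 1 gained it and 6 turned sign, all of CBX3, which was never called: NM_007276 (0.02) was -0.0036 without a filter, -0.11 per gene, -0.138 without replicate 2 and -0.139 without shHP1γ replicate 2 (up to 0.151 without replicate 3 of shHP1γ), and NM_016587 (-0.25) was 0.0925 without replicate 1 and 0.0924 without shHP1γ replicate 1 (down to -0.447 without replicate 2). At this depth, a transcript of 1 CPM had about 10 counts in a library.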
